A study of Mus musculus with 6 samples.

Results

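C-type lectin receptors are surface proteins that bind sugars, lipids and other molecules of fungi, bacteria and dying cells. The 10 genes described here were chosen by name (Clec7a, Clec4d, Clec4e, Clec4n, Clec4a1, Clec4a2, Clec4a3, Clec5a, Clec12a and Clec10a), and all 10 were found among the 17067 genes listed for each sample. Transcripts were measured by RNA sequencing in cells sorted as CD45+CD11b+F4/80+ macrophages from the colons of C57BL/6 mice aged 10 weeks. All mice had colitis induced with dextran sulfate sodium (DSS), and no untreated mice are compared here. The 2 groups were wild type (WT, 3 samples) and Gsdmd-/- (3 samples), the latter lacking Gsdmd, the gene of the pore-forming protein gasdermin D. The tables state no unit, and their values were read as FPKM, fragments scaled by transcript length and by library size. Levels are set beside each other on that reading, and the sums of the samples differ between the groups (476271 to 485411 in WT, 551502 to 565388 in Gsdmd-/-). Whether each sample is a mouse of its own is not stated in the labels, so the p-values reflect only how much these 6 samples vary, and that variation may be technical.

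Many of these receptors are known to signal through the kinase Syk. Clec7a carries its own signalling motif, while Clec4d, Clec4e and Clec4n work with the adaptor encoded by Fcer1g, and Clec5a with those encoded by Tyrobp and Hcst. Downstream of Syk, protein kinase C delta and the complex of CARD9, BCL10 and MALT1 lead to NF-kB and to cytokine genes. Other receptors of the family, such as Clec12a and Clec4a2, carry inhibitory motifs that recruit phosphatases and dampen macrophage activation.

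Of the 10 receptors, 7 fell in Gsdmd-/- macrophages, 1 rose and 2 did not pass the test. The receptors that fell were Clec7a, Clec4e, Clec4n, Clec5a, Clec4a2, Clec4a3 and Clec10a, and the receptor that rose was Clec4d, though not in TPM or after quantile normalization. Calls are from limma on log2(FPKM + 1) at a Benjamini-Hochberg adjusted p under 0.05, fitted over 10005 genes, all 10 receptors among them. By this rule 77.5% of all tested genes were called, 36.9% lower and 40.6% higher, so a call was common in this comparison. The median log2 change was -0.26 over the 10 receptors and 0.03 over all tested genes. As deposited, no receptor changed by as much as 2-fold, and the largest SD within a group was 5.55% of a receptor's mean. The groups did not overlap for 8 of the 10 receptors, and for 79.4% of all tested genes.

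**Figure D1:**
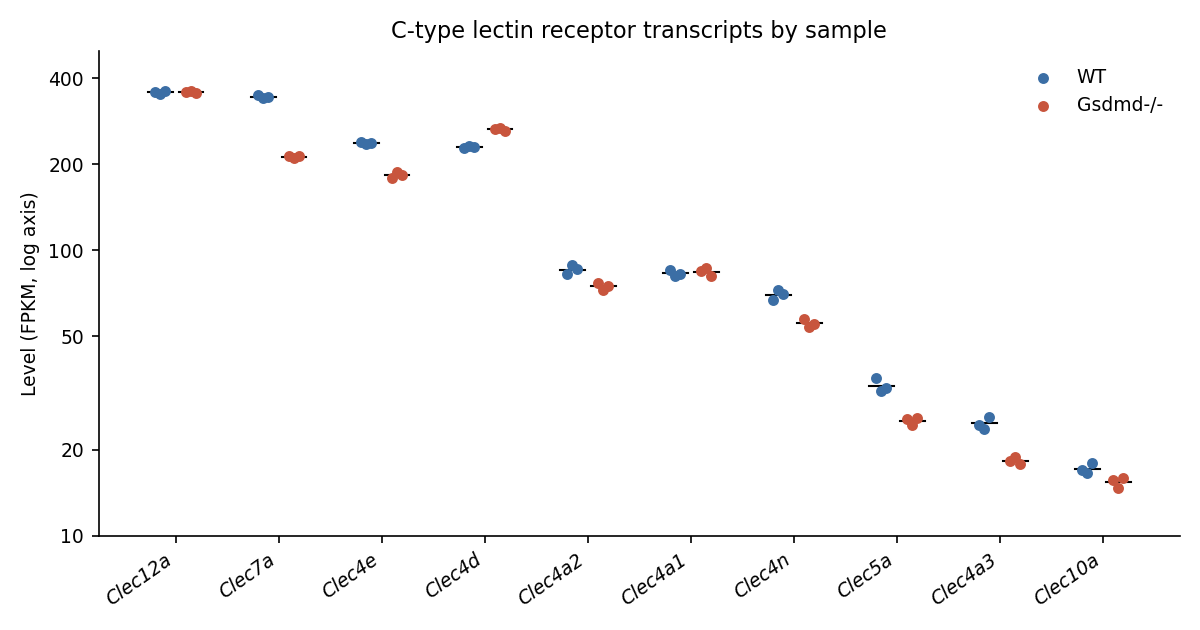
Level of each receptor transcript (FPKM, log axis) in the 3 WT and 3 Gsdmd-/- samples, with each point a sample and each line a group mean. The groups are apart for 8 receptors, higher in Gsdmd-/- only for Clec4d on the scale as deposited, and overlap for Clec12a and Clec4a1.

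Over all tested genes a log2 change went with the length and GC content of the transcript, and a smooth curve fitted to both accounted for 50.7% of the variance of those changes. Values with that trend removed are therefore given beside each receptor, using the longest coding transcript in GENCODE M21. On that scale 6 receptors fell and 2 rose, where 61.3% of 9853 tested genes were called, 31.4% lower and 30% higher. The median log2 change was then -0.13 over the 10 receptors and -0.0013 over all tested genes. Scaling to TPM, in which all samples have the same sum, moved the median of all genes to -0.17. In TPM 9 receptors fell and 0 rose, where 76% of tested genes were called, 51% lower and 25% higher. Quantile normalization is named where it changes a call. Bulk RNA cannot tell fewer cells of a type from less RNA per cell, which applies to each value below.

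The targeted gene checked the labels: Gsdmd stood at 97.7, 99.3 and 97.3 FPKM in WT and at 28.5, 29.0 and 29.7 FPKM in Gsdmd-/- samples (log2 change -1.72, limma adjusted p = 1.12e-11). Libraries were of nearly equal depth, estimated at about 19.2 to 19.8 M fragments from the steps of the lowest values. At that depth a receptor's value rested on 448 to 17749 fragments, with the fewest for Clec4a3, where counting error alone is 4.72%. All 11 macrophage markers passed the filter on low values, and 5 rose and 5 fell, where 77.5% of all tested genes were called. The 5 that rose were Cd68, Fcgr1, C1qa, C1qb and C1qc, with log2 changes of 0.33, 0.35, 0.45, 0.53 and 0.35. After removal of the length and GC trend these were -0.10, 0.24, -0.17, -0.04 and -0.19. Only Fcgr1 still rose, and C1qb did not pass. Itgam, Adgre1, Csf1r, Mertk and Ptprc fell on both scales, and Cd14 fell only without the trend. The list summed to 6189 to 6661 FPKM in WT and to 7582 to 7916 FPKM in Gsdmd-/-. Itgam and Adgre1, which encode the sorted proteins CD11b and F4/80, fell from 176 to 91.3 FPKM and from 291 to 216 FPKM (limma adjusted p = 1.21e-09 and 5.44e-08). The neutrophil genes Ly6g and Retnlg, the monocyte gene Ly6c2 and the dendritic cell gene Flt3 were under 1 FPKM in every sample. Other genes of these lists were higher, with means in WT and Gsdmd-/- of 29.6 and 37.5 FPKM for Csf3r (neutrophils), 38.0 and 23.5 FPKM for Vcan (monocytes), and 5.16 and 7.32 FPKM for Ccr7 (dendritic cells). Of the tested genes, 3 rose and 0 fell for neutrophils, and 2 rose and 2 fell for monocytes. For dendritic cells 2 rose and 0 fell. These counts stand beside 40.6% of all tested genes higher and 36.9% lower as deposited. With the trend removed the 3 neutrophil genes still rose. The dendritic cell gene Cd209a then did not pass (0.11, limma adjusted p = 0.164), while Ccr7 and Xcr1 rose (log2 changes 0.16 and 0.41).

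Summed over whole marker lists, neutrophil genes ranged from 36.4 to 40.4 FPKM in WT and from 47.0 to 51.0 FPKM in Gsdmd-/-, most of it Csf3r, with 5 of 9 under 1 FPKM in every sample. Dendritic cell genes summed to 8.82 to 9.87 and 11.4 to 12.4 FPKM, with 6 of 9 under 1 FPKM throughout. Monocyte genes summed to 45.1 to 47.8 and 34.8 to 38.2 FPKM, most of it Vcan, with 3 of 7 under 1 FPKM throughout. The log2 changes of Vcan and Ccr2 were -0.67 and -0.71 as deposited, and -0.04 and -0.12 with the trend removed, where neither passed. Plac8 and Fn1 rose on both scales, by 0.89 and 0.72 as deposited and by 0.60 and 1.04 with the trend removed. The genes of eosinophils, basophils and mast cells summed to 8.84 to 9 and 5 to 5.36 FPKM, with 5 of 8 under 1 FPKM throughout. Fibroblast genes, from cells outside the sort, summed to 33.3 to 34.8 and 89.3 to 91.1 FPKM, with 4 of 11 under 1 FPKM. Endothelial genes summed to 62.6 to 66.8 and 33.7 to 39.2 FPKM, most of it Kdr. Epithelial genes stayed under 3.5 FPKM in sum, and genes of T and NK cells and of B and plasma cells each under 1 FPKM. The part of these lists in the receptor changes was not tested.

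Of the receptors, 9 lie on chromosome 6 and Clec10a on chromosome 11. Clec4a1, Clec4a3, Clec4a2, Clec4n, Clec4d and Clec4e follow each other within a cluster of 368 kb, and Clec12a and Clec7a lie at the ends of another of 123 kb. Promoter sequence was matched by symbol for 8 of the 10 receptors in the RefSeq table of GRCm38.p6. For Clec4a3 the bases after the listed start were not found at the head of a GENCODE M21 transcript, and its window, counted among the 8, held none of the motifs searched. The stretches of 250 bases before the transcription start are shown for Clec7a, the receptor that fell most, and for the neighbours Clec4d and Clec4e, which moved in opposite directions. Capitals mark matches to GAGGAA (a purine box of the type bound by PU.1) and to TTGCNNAA (C/EBP) on either strand, so that a match on the other strand appears here as its reverse complement (TTCCTC for GAGGAA).
Clec7a (chr6:129472780-129473029, minus strand): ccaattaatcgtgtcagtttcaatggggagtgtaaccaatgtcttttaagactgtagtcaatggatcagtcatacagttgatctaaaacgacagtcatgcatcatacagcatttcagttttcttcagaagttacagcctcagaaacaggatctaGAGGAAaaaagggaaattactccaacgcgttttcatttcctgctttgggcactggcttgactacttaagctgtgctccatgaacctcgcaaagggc
Clec4d (chr6:123261857-123262106, plus strand): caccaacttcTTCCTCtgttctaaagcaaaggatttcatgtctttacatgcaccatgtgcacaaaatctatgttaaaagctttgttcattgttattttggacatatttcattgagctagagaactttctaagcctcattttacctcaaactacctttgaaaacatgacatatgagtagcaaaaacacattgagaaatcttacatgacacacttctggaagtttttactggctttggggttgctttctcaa
Clec4e (chr6:123289872-123290121, minus strand): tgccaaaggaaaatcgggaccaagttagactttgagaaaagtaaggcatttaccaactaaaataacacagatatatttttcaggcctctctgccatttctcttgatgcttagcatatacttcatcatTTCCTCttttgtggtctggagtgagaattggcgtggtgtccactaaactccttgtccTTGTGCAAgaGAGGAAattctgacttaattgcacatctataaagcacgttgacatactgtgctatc

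GAGGAA was found in 6 of the 8 receptor promoters and in 23.1% of 27025 promoters of the same length. In Clec7a it lay 96 to 91 bases before the start, in Clec4d 240 to 235 bases before it, and in Clec4e at 123 to 118 and at 56 to 51 bases before it. TTGCNNAA was found in Clec4e, 66 to 59 bases before the start, and in 2 of the 8 promoters against 9.55% of all. TGANTCA (AP-1) was found in 1 of the 8 promoters, that of Clec12a, against 6.87% of all. The Clec12a window also held GAGGAA and TTGCNNAA, and it starts at chr6:129349994, inside the gene as listed (from 129349783). The NF-kB motif and the interferon-stimulated response element were found in 0 of the 8, against 1.4% and 3.04% of all. The motifs did not overlap each other in the stretches shown. A match of letters is a description of the window and does not show binding.

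Clec7a encodes dectin-1, the receptor for beta-glucans of fungal cell walls, and fell most of the 10. Its level was 351, 341 and 346 FPKM in WT, against 214, 211 and 214 FPKM in Gsdmd-/- samples. Every Gsdmd-/- sample lay far below every WT sample. The mean went from 346 ± 5.08 to 213 ± 1.93 FPKM (SD, n = 3 each), to 61.6% of WT, a log2 change of -0.70 (SE 0.0253, limma adjusted p = 1.13e-09). After removal of the length and GC trend the log2 change was -0.56 (limma adjusted p = 7.36e-09), and -1.01 when the trend used the much shorter transcript that RefSeq pairs with the gene (707 bases in place of 2277). A noncoding gene, Gm45969, spans all of Clec7a in the RefSeq table, an overlap of whole gene spans with introns included. Of the 2274 windows of 50 bases in the coding transcripts of Clec7a, 0 also occur in GENCODE M21 transcripts of other genes. Whether the counting used strand is not given in the sources used here, and any part of Gm45969 in the values of Clec7a was not tested.

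Clec4e and Clec4d encode Mincle and MCL, receptors for mycobacterial glycolipids that are known to form a complex with each other. Mincle also binds a nuclear protein released from dying cells. Clec4e was at 240.3, 235 and 238 FPKM in WT and at 179, 188 and 183 FPKM in Gsdmd-/- samples. All Gsdmd-/- samples were lower. It fell from 238 ± 2.66 to 183 ± 4.16 FPKM (SD, n = 3 each), to 77.2% of WT (log2 change -0.37, SE 0.0274, limma adjusted p = 1.4e-07). Clec4d was at 228, 231 and 231 FPKM in WT and at 267, 267 and 261 FPKM in Gsdmd-/- samples, all of them higher. It rose from 230.1 ± 1.83 to 265 ± 3.38 FPKM (SD, n = 3 each), to 115% of WT (log2 change 0.20, SE 0.0251, limma adjusted p = 1.26e-05).

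The opposite calls of these neighbours held with the length and GC trend removed, at -0.16 for Clec4e (limma adjusted p = 0.000147) and 0.14 for Clec4d (limma adjusted p = 0.000133). The rise of Clec4d was lost in TPM, at -0.02 (limma adjusted p = 0.518), and after quantile normalization, at -0.0034 (limma adjusted p = 0.903), while Clec4e fell on both of those scales. A ratio within a sample is free of a scaling that multiplies the whole sample. Clec4d stood at 0.949, 0.984 and 0.972 of Clec4e in WT and at 1.49, 1.42 and 1.43 of it in Gsdmd-/- samples. The level of Clec4d was thus just below that of Clec4e in every WT sample and above it in every Gsdmd-/- sample. The mean ratio went from 0.968 ± 0.0181 to 1.45 ± 0.0354 (SD, n = 3 each, exact permutation test, two-sided p = 0.1, the smallest that 3 against 3 allows). The ratio is not free of the length trend, since the longest coding transcripts measure 2518 bases for Clec4e and 1323 bases for Clec4d. The direction of the ratio follows from the opposite calls of these genes as deposited.

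**Figure D2:**
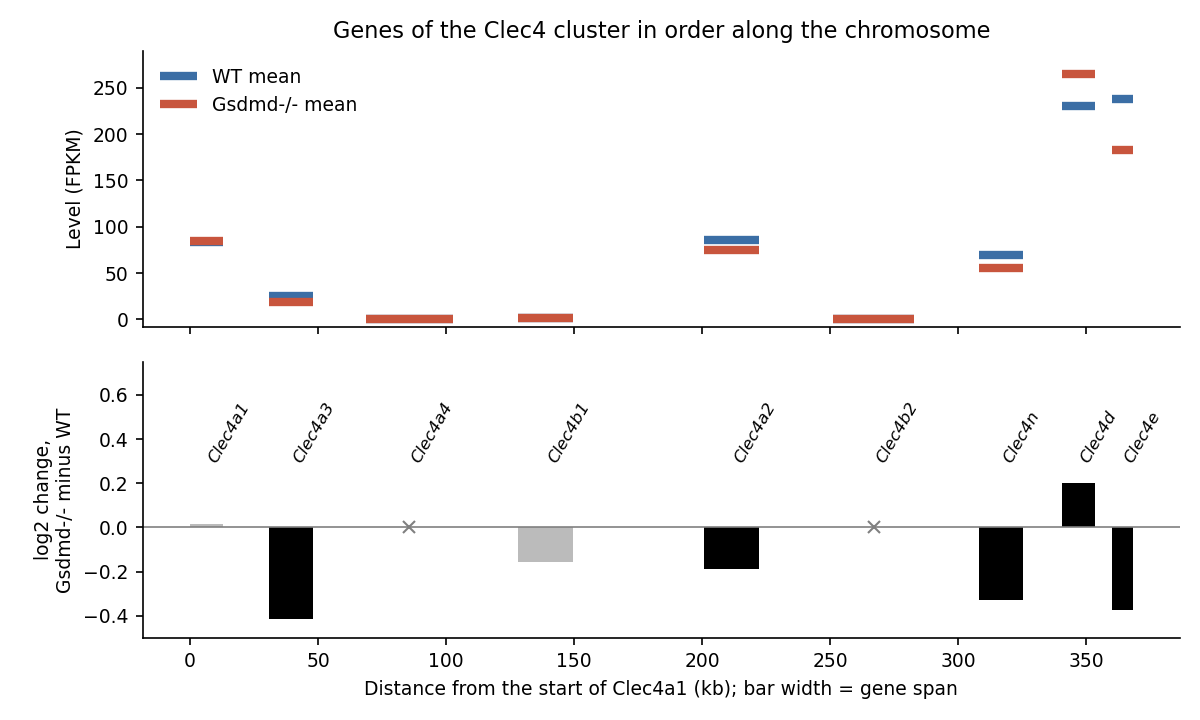
Genes of the Clec4 cluster at their distance from the start of Clec4a1 (kb), with the mean level in each group above (FPKM) and the log2 change below. Black bars passed the test, grey bars did not, and crosses mark genes too low to be tested. Clec4d, between Clec4n and Clec4e, is the only bar that passed upward on this scale, and did not pass in TPM or after quantile normalization.

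Clec4n encodes dectin-2, a receptor for fungal mannans, and lies next to Clec4d. It was at 67.1, 72.7 and 70.0 FPKM in WT and at 57.5, 54.0 and 55.1 FPKM in Gsdmd-/- samples, with all Gsdmd-/- samples lower. Its mean fell from 70.0 ± 2.81 to 55.5 ± 1.78 FPKM (SD, n = 3 each), to 79.4% of WT (log2 change -0.33, SE 0.0385, limma adjusted p = 8.04e-06). With the trend removed the fall was larger, at -0.55 (limma adjusted p = 5.38e-07). The ratio of Clec4d to Clec4n was higher in every Gsdmd-/- sample than in any WT sample, with means of 4.78 ± 0.156 and 3.29 ± 0.108 (SD, n = 3 each, exact permutation test, two-sided p = 0.1).

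Clec5a encodes MDL-1, which associates with the adaptors of Tyrobp and Hcst. Its values were 35.6, 32.1 and 32.8 FPKM in WT, against 25.6, 24.5 and 25.9 FPKM in Gsdmd-/- samples. The groups did not overlap, and the mean fell from 33.5 ± 1.86 to 25.3 ± 0.711 FPKM (SD, n = 3 each), to 75.6% of WT (log2 change -0.39, SE 0.0457, limma adjusted p = 7.96e-06). Once the length and GC trend was removed, the call depended on the transcript length assumed. With the trend removed at the longest transcript, 3747 bases, the log2 change was 0.01 (limma adjusted p = 0.778). At the length paired with RefSeq, 2302 bases, it was -0.23 (limma adjusted p = 0.000405).

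The DCIR genes Clec4a2, Clec4a3 and Clec4a1 lie in the same cluster on chromosome 6. Clec4a2 encodes DCIR, which carries an inhibitory motif. It was at 82.4, 88.5 and 85.7 FPKM in WT and at 76.5, 72.8 and 75.2 FPKM in Gsdmd-/- samples, all of them lower. The mean fell from 85.5 ± 3.04 to 74.8 ± 1.89 FPKM (SD, n = 3 each), to 87.5% of WT (log2 change -0.19, limma adjusted p = 0.000348). With the trend removed at the longest transcript it was 0.09 (limma adjusted p = 0.051), and at the RefSeq length -0.25 (limma adjusted p = 0.000135). Of its windows of 50 bases 6.83% also occur in other genes, most often Clec4a4, which was at a mean of 0.203 FPKM over the 6 samples.

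Clec4a3, which encodes a related receptor, was at 24.5, 23.7 and 26.2 FPKM in WT and at 18.3, 18.9 and 17.8 FPKM in Gsdmd-/- samples. All Gsdmd-/- samples were lower. Its mean fell from 24.8 ± 1.24 to 18.3 ± 0.560 FPKM (SD, n = 3 each), to 73.9% of WT (log2 change -0.42, limma adjusted p = 5.78e-06), and by 0.51 on the log2 scale with the trend removed. Clec4a1, by contrast, was at 85.6, 81.2 and 82.7 FPKM in WT and at 84.3, 86.7 and 81.2 FPKM in Gsdmd-/- samples. The groups overlapped, and its log2 change of 0.02 (95% interval -0.06 to 0.09) did not pass (limma adjusted p = 0.697). It was -0.10 with the trend removed (limma adjusted p = 0.00999) and -0.21 in TPM (limma adjusted p = 9.77e-05).

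Clec12a encodes MICL, an inhibitory receptor that recognises uric acid crystals from dead cells, and was the most abundant of the 10 in both groups. It was at 358, 354 and 363 FPKM in WT and at 357, 362 and 357 FPKM in Gsdmd-/- samples. The groups overlapped, with means of 358 ± 4.36 and 359 ± 2.81 FPKM (SD, n = 3 each) and a log2 change of 0.0022 (95% interval -0.05 to 0.06, limma adjusted p = 0.939). The direction depended on the scale. It rose with the trend removed, by 0.17 (limma adjusted p = 2.38e-05), and fell in TPM (-0.22, limma adjusted p = 1.33e-06) and after quantile normalization (-0.27, limma adjusted p = 4.17e-06).

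Clec10a encodes MGL1, a lectin for galactose-type sugars often used as a marker of alternatively activated macrophages, and was the least abundant. It was at 17.0, 16.6 and 17.9 FPKM in WT and at 15.7, 14.7 and 16.0 FPKM in Gsdmd-/- samples. All Gsdmd-/- samples were lower, but the gap between the groups was small. The mean fell from 17.2 ± 0.652 to 15.5 ± 0.699 FPKM (SD, n = 3 each), a log2 change of -0.14 (limma adjusted p = 0.0181), which was -0.25 with the trend removed (limma adjusted p = 0.000792) and -0.45 when the trend used the RefSeq length (limma adjusted p = 2.09e-05). The call was lost without WT replicate 3 (-0.12, limma adjusted p = 0.0859) and without Gsdmd-/- replicate 2 (-0.11, limma adjusted p = 0.0782). Of its windows of 50 bases, 8.63% also occur in the related gene Mgl2, whose means were 1.82 ± 0.391 FPKM (WT) and 2.50 ± 0.426 FPKM (Gsdmd-/-; SD, n = 3 each).

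**Figure D3:**
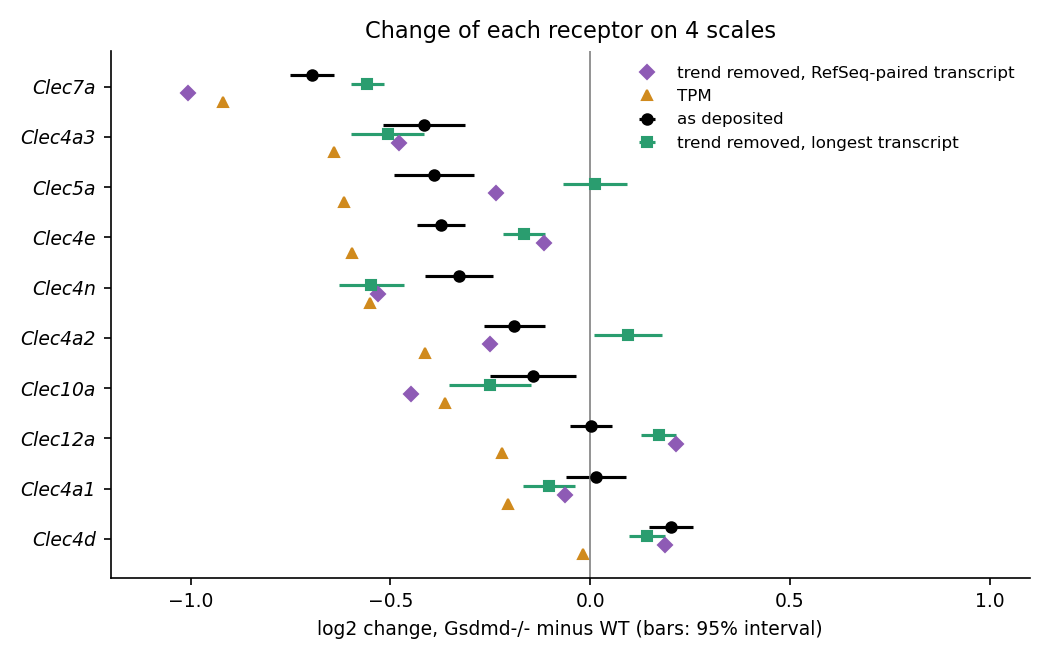
Log2 change of each receptor, Gsdmd-/- minus WT, as deposited (black, with 95% interval), with the length and GC trend removed at the longest transcript (green, with 95% interval) or at the RefSeq-paired transcript (purple), and in TPM (orange). Clec7a, Clec4a3, Clec4e, Clec4n and Clec10a lie below 0 on all 4 scales, while Clec5a, Clec4a2, Clec12a, Clec4a1 and Clec4d have values on both sides of 0.

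The order of the levels changed in the upper part of the family. In WT, Clec12a and Clec7a led at 358 and 346 FPKM, with no overlap between their samples, followed by Clec4e at 238 and Clec4d at 230.1 FPKM. In Gsdmd-/- samples Clec4d was next after Clec12a, ahead of Clec7a and Clec4e. Below these came Clec4a2, Clec4a1 and Clec4n, then Clec5a, Clec4a3 and Clec10a, in both groups except that Clec4a1 and Clec4a2 changed places. In WT the samples of Clec4a2 and Clec4a1 overlapped, so those neighbours did not differ beyond their spread. By Pearson correlation over the 6 samples, the genes most like Clec7a were Dmxl1 (0.9999), Trak2 (0.9998) and B230219D22Rik (0.9997), and 1120 genes had a correlation over 0.99, since the samples form 2 groups.

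Of 54 other receptors with the C-type lectin fold that were listed, 50 were in the tables and 15 passed the filter on low values, of which 6 rose and 7 fell, where 77.5% of all tested genes were called, with a median log2 change of -0.07. On the scale without the trend, 6 were higher and 6 lower by the same test, where 61.3% of all tested genes were called. Their median log2 change was then 0.05. Mrc1, the mannose receptor, fell from 87.8 ± 3.11 to 58.1 ± 2.79 FPKM (SD, n = 3 each), a log2 change of -0.59 (limma adjusted p = 8.45e-08) that was -0.13 with the trend removed. Clec2d, a ligand of an inhibitory receptor on NK cells, rose from 75.7 ± 3.23 to 109 ± 2.84 FPKM, and Cd72, an inhibitory receptor best known from B cells, from 146 ± 3.11 to 188 ± 1.09 FPKM (log2 changes 0.51 and 0.36, and 0.30 and 0.12 with the trend removed). Colec12, a scavenger receptor, rose from 5.71 ± 0.166 to 8.89 ± 0.807 FPKM, a log2 change of 0.56 that was 1.15 with the trend removed. Of the lectin genes that lie between the receptors in both clusters, Clec4a4, Clec4b2, Clec12b, Clec1b, Clec9a and Clec1a were under 1 FPKM in every sample, unlike Clec4b1, whose means were 1.85 FPKM (WT) and 1.55 FPKM (Gsdmd-/-).

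Among adaptors, kinases and phosphatases next to the receptors, 5 of 16 rose and 7 fell as deposited, and 3 rose and 9 fell with the trend removed. Over all tested genes 77.5% and 61.3% were called on these scales, so the called share was near the background as deposited. Fcer1g, the shared adaptor of Clec4d, Clec4e and Clec4n, went from 1868 ± 76.4 to 2826 ± 151 FPKM (SD, n = 3 each), a log2 change of 0.60 (limma adjusted p = 1.75e-07) that was 0.04 with the trend removed (limma adjusted p = 0.106). Syk fell from 66.7 ± 1.66 to 50.5 ± 1.76 FPKM (log2 change -0.40, limma adjusted p = 9.79e-07), and by 0.24 with the trend removed. Cbl, a ubiquitin ligase that targets activated kinases, fell from 12.2 ± 0.875 to 3.09 ± 0.573 FPKM (log2 change -1.69, and -1.15 with the trend removed). Cd37, a tetraspanin that binds dectin-1, rose from 99.7 ± 3.93 to 143 ± 3.46 FPKM (log2 change 0.52, and 0.26 with the trend removed). Tyrobp and Hcst, named for their role with Clec5a after their values were seen, had log2 changes of 0.38 and 0.56 as deposited and of -0.28 and -0.21 with the trend removed, so the direction of these short transcripts depended on the scale. The ratio of Fcer1g to Syk was 28.0 ± 1.83 in WT and 56.1 ± 4.67 in Gsdmd-/- samples (SD, n = 3 each, exact permutation test, two-sided p = 0.1), between transcripts of 683 and 5363 bases.

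In the module from phospholipase C gamma to CARD9 and its kinases, 14 of 20 genes fell and 2 rose, with a median log2 change of -0.22 against 0.03 over all tested genes. With the trend removed 7 fell and 3 rose, and the median was -0.09. The number called stands beside 77.5% of all tested genes as deposited (36.9% lower) and 61.3% with the trend removed (31.4% lower). Malt1, the protease and scaffold of the complex, fell from 54.2 ± 1.70 to 26.4 ± 0.918 FPKM (SD, n = 3 each), a log2 change of -1.01 (limma adjusted p = 1.77e-09). Tab2, an adaptor of the kinase TAK1, fell from 60.2 ± 1.45 to 33.0 ± 1.93 FPKM, Prkcd, protein kinase C delta, from 207 ± 4.04 to 154 ± 0.531 FPKM, and Chuk, the kinase IKK alpha, from 13.5 ± 0.308 to 7.17 ± 0.595 FPKM. With the trend removed, the log2 changes of Malt1, Tab2, Prkcd and Chuk were -0.59, -0.62, -0.51 and -0.53. Card9 and Bcl10 were named after their values were seen. Card9 rose from 11.6 ± 0.312 to 18.6 ± 0.716 FPKM (log2 change 0.64, limma adjusted p = 1.42e-07; without the trend, 0.28), and Bcl10 fell from 31.2 ± 0.478 to 23.6 ± 1.22 FPKM (log2 change -0.39, and -0.50 with the trend removed). The 3 partners of the complex thus moved in different directions, and the ratio of Card9 to Malt1 went from 0.214 ± 0.0126 to 0.707 ± 0.0353 (SD, n = 3 each, exact permutation test, two-sided p = 0.1). Over the 4 ratios computed, the Benjamini-Hochberg adjusted p was 0.1 for each. Each ratio sets a transcript that rose over one that fell, without overlap between groups as deposited. Their separation and permutation p-values therefore follow from those calls and are not further support.

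**Figure D4:**
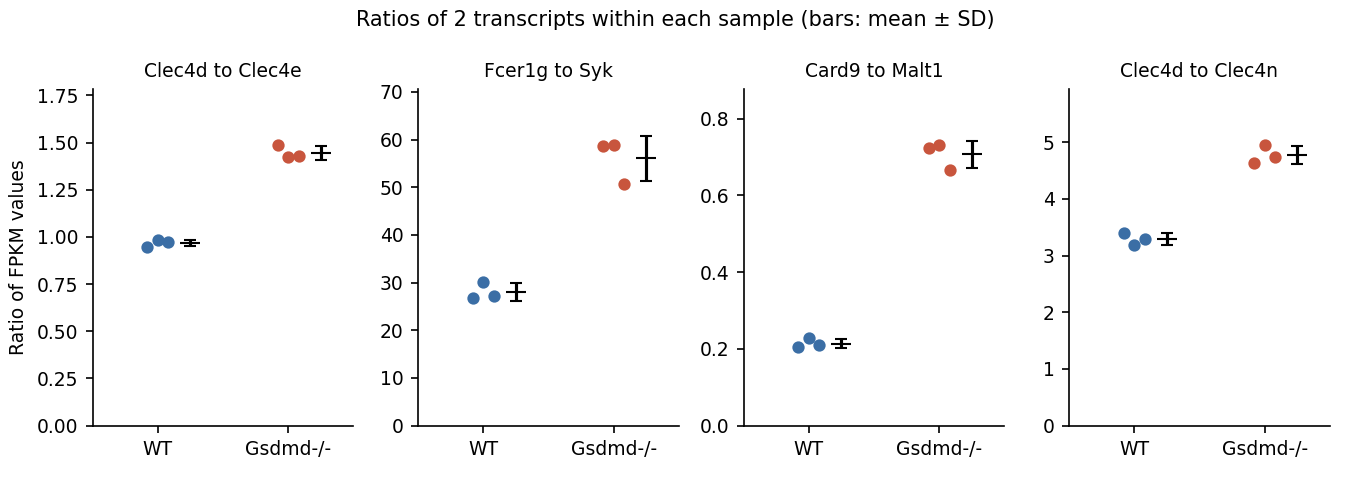
Ratio of FPKM values of 2 transcripts within each sample, for the 4 ratios computed, with each point a sample and bars giving mean ± SD (n = 3). In all 4 panels every Gsdmd-/- sample lies above every WT sample. In each pair the first transcript rose and the second fell, without overlap between groups as deposited. The separation therefore follows from those calls.

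Of 13 transcription factor and calcineurin genes of the pathway, 8 fell and 3 rose, with 8 and 2 when the trend was removed, where 77.5% and 61.3% of all tested genes were called. Rel, an NF-kB subunit, had a log2 change of -1.40, Nfkb1, the gene of the p50 subunit, one of -0.57, Ppp3cb, a catalytic subunit of calcineurin, one of -0.98, and Nfatc3, which calcineurin activates, one of -0.97. These 4 also fell with the trend removed, by 0.80, 0.51, 0.59 and 0.54. Of the products known to be induced through Syk and CARD9, 9 of 14 passed the filter on low values, of which 6 fell and 3 rose, where 36.9% of all tested genes were lower and 40.6% higher. Cxcl2, a neutrophil chemoattractant, fell from 67.2 ± 3.35 to 53.1 ± 1.67 FPKM (SD, n = 3 each), a log2 change of -0.33. Ptgs2 (cyclooxygenase-2), Il1b (interleukin-1 beta) and Nlrp3 (an inflammasome sensor) had log2 changes of -1.44, -0.55 and -0.42. The 3 that rose were Cxcl1, Il6 and Tnf, with log2 changes of 0.50, 0.24 and 0.17 as deposited and of 0.22, 0.43 and -0.15 with the trend removed. With the trend removed 7 of the 9 fell and 2 rose.

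Among 11 transcription factors and cytokine receptors known to raise these receptors, 7 rose and 4 fell as deposited, where 40.6% of all tested genes were higher and 36.9% lower. Once the trend was removed, 1 rose and 6 fell, where 30% were higher and 31.4% lower. Irf4, a factor of alternative activation, fell from 3.15 ± 0.199 to 1.22 ± 0.151 FPKM and Stat6, which acts downstream of interleukin-4, from 49.7 ± 1.26 to 39.4 ± 0.393 FPKM (SD, n = 3 each, log2 changes -0.90 and -0.33, and -0.62 and -0.33 with the trend removed). Il4ra, the interleukin-4 receptor chain, rose from 67.4 ± 0.465 to 81.0 ± 2.46 FPKM (log2 change 0.26, and 0.37 with the trend removed). Csf2ra, a chain of the GM-CSF receptor, rose from 151 ± 5.44 to 202 ± 7.14 FPKM (log2 change 0.42), but its change was -0.03 with the trend removed (limma adjusted p = 0.347).

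**Figure D5:**
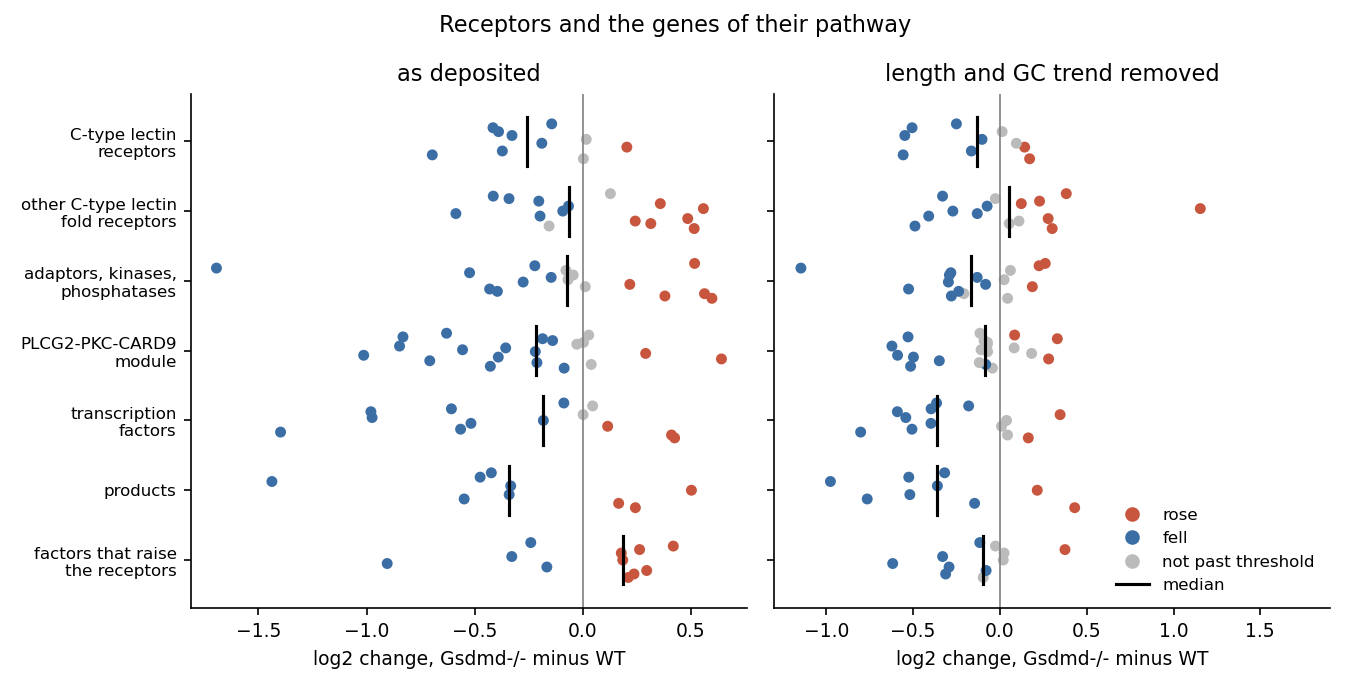
Log2 change, Gsdmd-/- minus WT, of each tested gene among the receptors and the 6 lists of related genes, as deposited (left) or after removal of the length and GC trend (right). Points are genes, coloured by whether they rose or fell at an adjusted p under 0.05, and black lines are list medians. The median of the transcription factors lies at -0.18 on the left and at -0.36 on the right, and that of the factors that raise the receptors at 0.18 and -0.10.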

How the data were processed

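Libraries were run on the BGISEQ-500, per the labels' protocols. The submitters' processing notes name Bowtie2 version 2.2.5 and, as the genome build, GRCm38.p6. Not given in the sources used here: counter, annotation, use of strand and filters. The deposited tables hold 1 value per gene and sample with no stated unit, read as FPKM because their sums differ between samples (476271 to 565388) and their low values step with transcript length. Groups and replicate numbers came from the labels. Depth was estimated from those steps in genes with 1 transcript, so its absolute value depends on the annotated lengths.

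The limma package (version 3.58.1, under R 4.3.3, trend and robust settings) was fitted to genes that reached 1 FPKM in 3 or more of the 6 samples, on log2(FPKM + 1), which understates changes of low genes. P-values were adjusted by Benjamini-Hochberg over all 10005 tested genes. Length and GC content were found for 98.5% of them, and their trend was removed per sample with natural splines of 5 degrees of freedom. Fits were tested on simulated data. Ratios were tested by exact permutation, on pairs in which the first transcript rose and the second fell. Positions, promoters and neighbours are from the RefSeq tables of GRCm38.p6, and transcripts from GENCODE M21. In 25 cases a symbol turned into a date was replaced through its identifier.

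The receptors, the lists and the markers were chosen with earlier results of these data known. The rule for named genes took all 10 receptors, Gsdmd, the 4 genes of each pathway list with the smallest p, the 3 genes most like the receptor with the largest change, genes overlapping a receptor, and markers where they stand beside a result. Outside the rule, Tyrobp, Hcst, Card9, Bcl10, Mgl2, Cxcl1, Il6, Tnf and the lectin genes between the receptors were named after their values were seen. Alternatives covered pseudocount, filter, scaling, the length and GC trend, the replicate block, the variance model and each replicate left out. The transcript length paired with RefSeq was added after seeing the data. For every gene, that alternative used the median length and GC content of its coding transcripts paired with a RefSeq mRNA. Where none was paired, the median over all its coding transcripts was used.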

Additional observations from a re-analysis of the deposited data

How the results depend on the processing

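Clec7a, Clec4e, Clec4n and Clec4a3 kept their direction and passed in all 18 alternatives, and Gsdmd did so too. The log2 change of Clec7a ranged from -1.01 to -0.56 over them and that of Clec4e from -0.60 to -0.12. Where a value changed below, the cause was not tested.

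In TPM the log2 change was -0.019 for Clec4d, -0.21 for Clec4a1 and -0.22 for Clec12a, and after quantile normalization -0.0034, -0.076 and -0.27. With median ratio scaling it was -0.022 for Clec4a1 and -0.035 for Clec12a. With the length and GC trend removed it was 0.013 for Clec5a, -0.10 for Clec4a1, 0.095 for Clec4a2 and 0.17 for Clec12a, and at the RefSeq transcript length -0.063 for Clec4a1 and 0.21 for Clec12a. With replicates left out in turn, values ranged from -0.0065 to 0.039 for Clec4a1, from -0.0065 to 0.011 for Clec12a and from -0.17 to -0.11 for Clec10a. The number of receptors that rose was 1 as reported, 0 in TPM and after quantile normalization, and 2 with the trend removed at either length. Of the 69 tested genes of the 5 pathway lists, 20 rose and 39 fell as reported. The number that rose was 10 in TPM, 13 after quantile normalization, 11 with the trend removed, and 13 with the trend removed at the RefSeq length. Over all tested genes, 40.6% were higher and 36.9% lower as deposited. The share that was higher was 25% in TPM and 30% with the trend removed at the longest transcript. That share is not given here for quantile normalization or the RefSeq length.

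Same-numbered samples of the 2 groups had correlations of their deviations of -0.08, 0.13 and 0.01, and pairs with different numbers ranged from -0.17 to 0.16. With 3 samples per group these values cannot decide whether same-numbered samples shared a day or batch. The replicate block changed no call among the receptors. With the replicate block and the trend removed, the log2 change was 0.013 for Clec5a, -0.10 for Clec4a1, 0.095 for Clec4a2 and 0.17 for Clec12a, 2 receptors rose, and 12 pathway genes rose.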
